A study of Mus musculus with 11 samples.

Results

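The epicardium is the thin mesothelial sheet that covers the developing heart. Its cells arise from the proepicardium, spread over the myocardium, and in part lose their epithelial contacts to give rise to fibroblasts and to the mural cells of the coronary vessels. It also signals to the muscle beneath, with retinoic acid as its best known product. The 10 genes described here are used as markers of that layer and were chosen by name, with earlier results of these data known. They are the transcription factors Wt1, Tbx18, Tcf21 and Bnc1, the retinoic acid enzyme Aldh1a2, the surface proteins Upk3b, Upk1b, Msln and Lrrn4, and the keratin Krt19. All 10 were matched to an Ensembl identifier among the 55487 in the count files, and all 10 were among the 24177 genes tested.

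RNA was sequenced from single embryonic hearts, with 1 library per heart, of 5 Pde2A-/- embryos (hearts KO A, KO B, KO 14, KO D and KO 15) and 6 Pde2A+/+ embryos (WT 7, WT 11, WT 6, WT 8, WT H and WT E), at E14.5. All came from the strain B6;129P2-Pde2A<tm1Dgen>, from matings of heterozygotes, and no heart was treated. The allele is constitutive, so the phosphodiesterase is lost in every tissue of the embryo and not in the epicardium alone. Embryos of both sexes were used, but the sex, litter and batch of a heart are not given, so the p-values measure the spread between these hearts only.

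Between 35865537 and 42835382 reads per heart lay on the strand of a gene. The mean total differed little between the genotypes (p = 0.87 by a two-sided exact permutation test). The identifier of Pde2a had between 0 and 2 counts per library, in Pde2A+/+ hearts as well, and 7 in all, so it gave no check of the labels. Whether Pde2a RNA was absent or was not counted for this identifier was not tested. Markers of neighbouring organs were present in 6 libraries. Foxn1, the thymic epithelial factor, had 10.9 CPM (counts scaled to a common library size) in WT 7, 0.0236 CPM in KO B and 0 in the other 9 hearts. The lung and thyroid factor Nkx2-1 had 5.22 CPM in WT 11 and at most 0.274 in the others, Alb of the liver had 46.6 in WT E and 11.5 to 16.9 in KO D, WT 11 and WT H, and the embryonic skeletal myosin Myh3 had 71.0 in KO B and 86.7 in KO D. The summed level of the 10 thymus markers was 6.69 to 10.6 CPM in Pde2A-/- and 8.88 to 163.3 in Pde2A+/+ hearts, that of the 10 liver markers 42.1 to 109.1 and 30.2 to 165.6, that of the 10 skeletal muscle markers 3.24 to 124.4 and 4.36 to 29.1, and that of the 10 lung epithelium markers 101.5 to 128.5 and 90.6 to 133.1, with Sftpd at 0 in all 11 libraries. Most of the lung sum was Id2 (61.4 to 98.6 CPM) and Etv5 (18.2 to 39.3 CPM), both present in all 11 hearts. That sum therefore does not show lung tissue in each heart. Trf, in the liver sum, likewise had 25.6 to 66.1 CPM over all 11 hearts. Mesothelium also covers the lung, the liver and the pericardium, and these 10 genes are not specific to that of the heart.

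RefSeq (GRCm38.p6) gave promoters for 6 of the 10 genes: Tbx18, Tcf21, Aldh1a2, Upk3b, Lrrn4 and Bnc1. The 250 bases before the RefSeq transcription start are shown for Upk3b and Lrrn4, whose levels rose and fell together from heart to heart. They are also shown for the transcription factors Tbx18 and Tcf21, whose mean levels differed between the genotypes in opposite directions. The bases are printed on the strand of the gene, and capitals mark the motif matches described after them. Upk3b lies at chr5:136038246-136038495 on the plus strand, Lrrn4 at chr2:132880863-132881112, Tbx18 at chr9:87731261-87731510 and Tcf21 at chr10:22820144-22820393, these 3 on the minus strand.
Upk3b: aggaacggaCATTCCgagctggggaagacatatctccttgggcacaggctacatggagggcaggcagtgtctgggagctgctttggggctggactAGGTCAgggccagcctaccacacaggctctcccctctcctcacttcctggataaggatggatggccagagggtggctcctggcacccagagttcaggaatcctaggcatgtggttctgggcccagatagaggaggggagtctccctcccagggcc
Lrrn4: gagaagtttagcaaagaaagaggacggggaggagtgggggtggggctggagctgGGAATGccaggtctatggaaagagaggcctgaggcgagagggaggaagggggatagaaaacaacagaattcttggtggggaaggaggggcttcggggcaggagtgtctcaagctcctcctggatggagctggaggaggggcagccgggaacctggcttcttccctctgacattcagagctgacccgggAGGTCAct
Tbx18: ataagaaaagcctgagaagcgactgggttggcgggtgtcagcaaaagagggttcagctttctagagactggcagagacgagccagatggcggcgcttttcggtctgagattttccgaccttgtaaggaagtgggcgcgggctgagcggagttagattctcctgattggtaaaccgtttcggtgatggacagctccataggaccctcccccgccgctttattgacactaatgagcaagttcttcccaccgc
Tcf21: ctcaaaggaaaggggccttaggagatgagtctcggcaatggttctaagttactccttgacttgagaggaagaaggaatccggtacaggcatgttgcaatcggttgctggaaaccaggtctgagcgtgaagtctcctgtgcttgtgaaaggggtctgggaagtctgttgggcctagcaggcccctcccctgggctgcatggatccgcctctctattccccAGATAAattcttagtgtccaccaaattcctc

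The 6 windows were searched on both strands for 6 short motifs, none of whose matches overlapped another. GGAATG, bound by TEAD factors, was found in Upk3b and Lrrn4 and in 12.6% of all 32851 promoters of the table. AGGTCA, a half-site of retinoic acid receptors, was found in the same pair and in 14% of all promoters. AGATAA, bound by GATA factors, was found in Tcf21 (9.99% of all), AGGTGT of T-box factors in Aldh1a2 (11.8%), and GCGTGGG of WT1 also in Aldh1a2 (4.3%). CAGCTG, the E-box of TCF21, was in none of the 6 and in 13% of all promoters, and Tbx18 and Bnc1 held no match to any of these letters. The GC content was 83.6% for Bnc1, 77.6% for Aldh1a2, 60.8% for Upk3b, 59.2% for Lrrn4, 54.0% for Tbx18 and 52.4% for Tcf21, where the median of all promoters was 52.4%.

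In GRCm38 (GENCODE M21) all 10 are protein-coding genes, and reads were counted over their exons. The transcription factor genes are Wt1 (ENSMUSG00000016458, chr2:105126529-105173616), Tbx18 (ENSMUSG00000032419, chr9:87702800-87731260), Tcf21 (ENSMUSG00000045680, chr10:22817281-22820174) and Bnc1 (ENSMUSG00000025105, chr7:81966672-81992292). Aldh1a2 (ENSMUSG00000013584) lies at chr9:71215789-71296243 and Krt19 (ENSMUSG00000020911) at chr11:100140810-100148665. The genes for surface proteins are Upk3b (ENSMUSG00000042985, chr5:136038496-136046487), Upk1b (ENSMUSG00000049436, chr16:38773184-38800328), Msln (ENSMUSG00000063011, chr17:25748613-25754378) and Lrrn4 (ENSMUSG00000043110, chr2:132868305-132880891). No other gene shares exon bases with them on the same strand. The RefSeq starts of Tcf21 and Lrrn4 lie inside these bounds, so the match AGATAA in Tcf21 and AGGTCA in Lrrn4 fell within the genes of GENCODE. Bnc1 alone is on the chromosome of Pde2a, 19.43 Mb away.

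All 10 genes were counted well, between 407 reads (Upk1b) and 7473 reads (Upk3b) in a single library. Per kilobase of exon, the level in Pde2A+/+ hearts was highest for Upk3b, a uroplakin of the mesothelial surface, at 37.0 ± 16.0 CPM per kb (SD, n = 6). Krt19 followed with 25.9 ± 8.49, Aldh1a2 with 23.9 ± 10.3, Tbx18 with 15.5 ± 1.96, Tcf21 with 13.6 ± 1.52, Msln with 12.2 ± 2.53, Lrrn4 with 11.1 ± 5.24, Upk1b with 7.72 ± 2.50, Wt1 with 6.13 ± 1.71 and Bnc1 with 5.20 ± 1.44 CPM per kb. In this order every pair of neighbours lay closer together than the larger of their SDs.

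**Figure D1:**
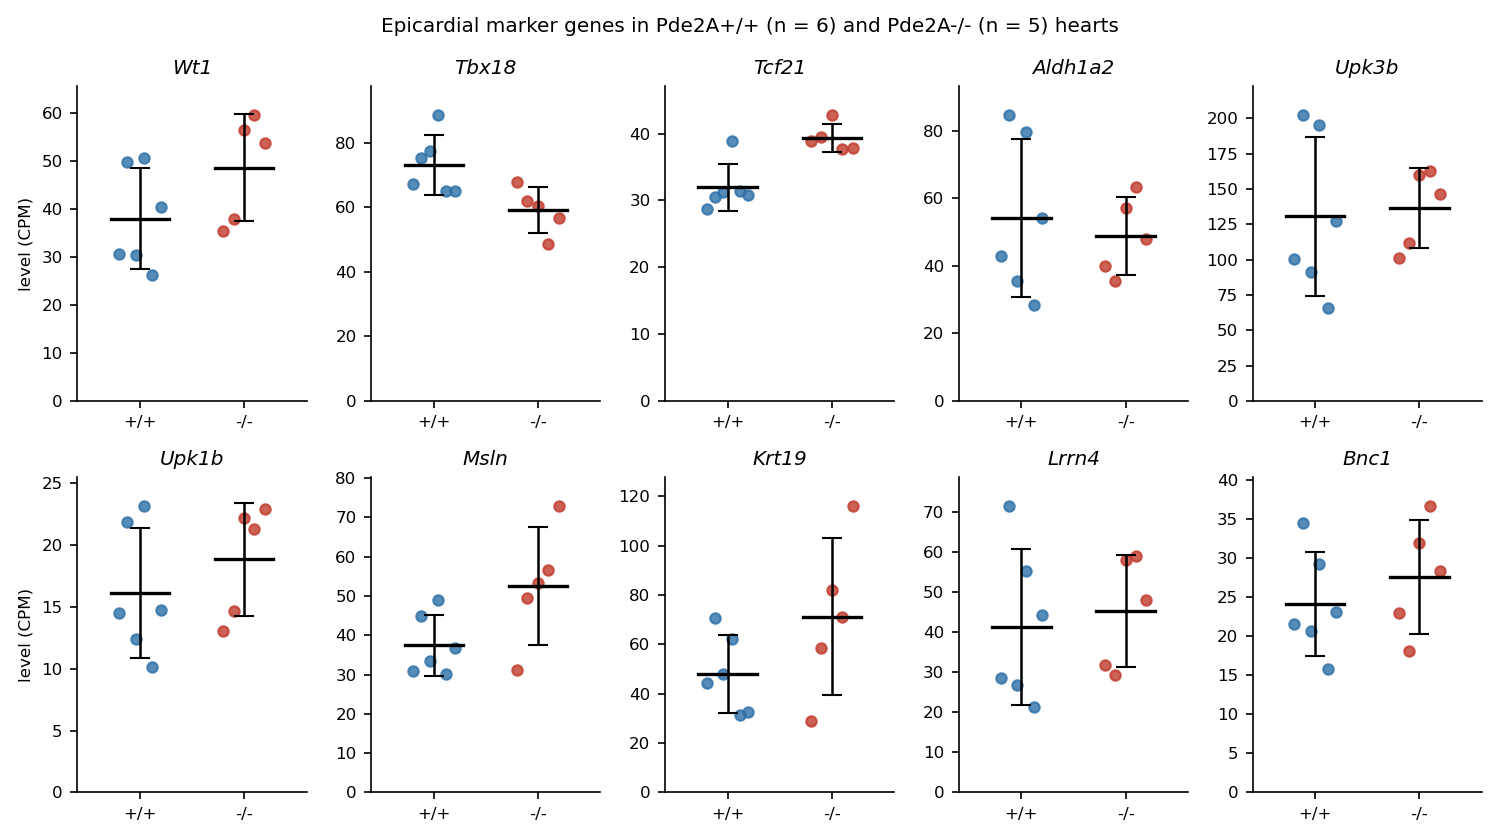
Level in CPM of the 10 epicardial genes in each heart, with Pde2A+/+ (n = 6, blue) on the left and Pde2A-/- (n = 5, red) on the right of each panel; bars give the mean and the SD. The genotypes overlap for every gene, from the narrow spread of Tcf21 to the wide one of Krt19.

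A quasi-likelihood fit in edgeR compared Pde2A-/- with Pde2A+/+ hearts, p-values were adjusted over the 24177 genes (Benjamini-Hochberg), and genes with an adjusted p under 0.05 are named as called. Of the 10 epicardial genes, Tcf21 was called higher and Tbx18 lower in Pde2A-/- hearts, and the other 8 were not called. Among all genes tested 8.93% were called higher and 5.67% lower. None of the 10 reached a fold change of 2 beside its call, which 2.59% of all genes did, and for none did the values of the genotypes stay apart, as they did for 8.49% of all genes. Over the 10 genes the log2 fold change had a median of 0.21, against −0.02 over all genes, and 8 of the 10 lay above 0, against 47.0% of all genes. The 10 are not separate observations: Wt1, Aldh1a2, Upk3b, Upk1b, Lrrn4 and Bnc1 rose and fell together over the hearts (r of 0.89 to 0.98). The called genes Tcf21 and Tbx18 followed the mean of the other genes weakly over the 11 hearts (r of 0.39 and 0.10, rho of −0.13 and 0.03). RNA of whole hearts does not show which cells held a transcript. In it, a change in the number of epicardial cells and a change in RNA per cell cannot be told apart.

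Tcf21, a basic helix-loop-helix factor that epicardial cells need to become cardiac fibroblasts, was the steadiest of the 10 between hearts. It had 38.9 CPM in KO A, 39.4 in KO B, 42.9 in KO 14, 37.8 in KO D and 37.9 in KO 15. In Pde2A+/+ hearts it ran from 28.7 CPM over a median of 31.0 to 39.0 in WT 8. All 5 Pde2A-/- hearts thus lay above 5 of the 6 Pde2A+/+ hearts, and WT 8 alone reached their range. The means were 39.4 ± 2.07 CPM (SD, n = 5) and 31.9 ± 3.57 CPM (SD, n = 6), a log2 fold change of 0.30 (SE 0.07, edgeR adjusted p = 0.0164). The call was lost without KO 14 (0.27, adjusted p = 0.0501), without both WT 7 and WT 11 (0.25, adjusted p = 0.0718), and without the 6 hearts with markers of other organs (0.18, adjusted p = 0.452), which leaves 3 against 2.

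Tbx18, a T-box factor that marks the proepicardium and its descendants, moved the other way. It had 68.0 CPM in KO A, 62.1 in KO B, 60.3 in KO 14, 48.6 in KO D and 56.8 in KO 15. In Pde2A+/+ hearts it ran from 65.1 CPM over a median of 71.4 to 88.8 in WT 8. Of the Pde2A-/- hearts 4 lay below every Pde2A+/+ heart, and KO A lay among them. The means were 59.2 ± 7.17 CPM (SD, n = 5) and 73.3 ± 9.27 CPM (SD, n = 6), and the level fell by 0.31 on the log2 scale (SE 0.10, edgeR adjusted p = 0.0466). The direction was the same in all 21 alternative settings, with log2 fold changes from −0.43 to −0.24, and the call held in 11 of them. It was lost without any 1 of KO 14 (−0.32, edgeR adjusted p = 0.0883), KO 15 (−0.29, 0.103), KO D (−0.24, 0.116), WT 11 (−0.30, 0.0731), WT 6 (−0.29, 0.0910), WT 7 (−0.33, 0.0520) or WT 8 (−0.24, 0.0824). It was also lost without both WT 7 and WT 11 (−0.33, edgeR adjusted p = 0.0776), without the 6 hearts with markers of other organs (−0.43, 0.147), and with the naming style of the hearts as a covariate (−0.27, 0.0786). D030062O11Rik on the opposite strand covers 20.6% of the exon bases of Tbx18. With reads of both strands its fold change was −0.29 (edgeR adjusted p = 0.0432).

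The ratio of Tbx18 to Tcf21 counts within a library does not depend on the normalization between hearts. It was 1.75 in KO A, 1.57 in KO B, 1.41 in KO 14, 1.29 in KO D and 1.499 in KO 15. In Pde2A+/+ hearts it ran from 2.08 in WT H to 2.49 in WT 6. The genotypes stayed apart, with means of 1.504 ± 0.174 (SD, n = 5) and 2.30 ± 0.173 (SD, n = 6), although they overlapped for each gene alone. This was so for 1 of the 45 ratios between the 10 genes. The ratio was picked after the values had been seen and was not tested. Of the other genes that averaged 1 CPM or more, 12.9% had a ratio to Tbx18 that kept the genotypes apart, and 26.3% a ratio to Tcf21 that did.

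**Figure D2:**
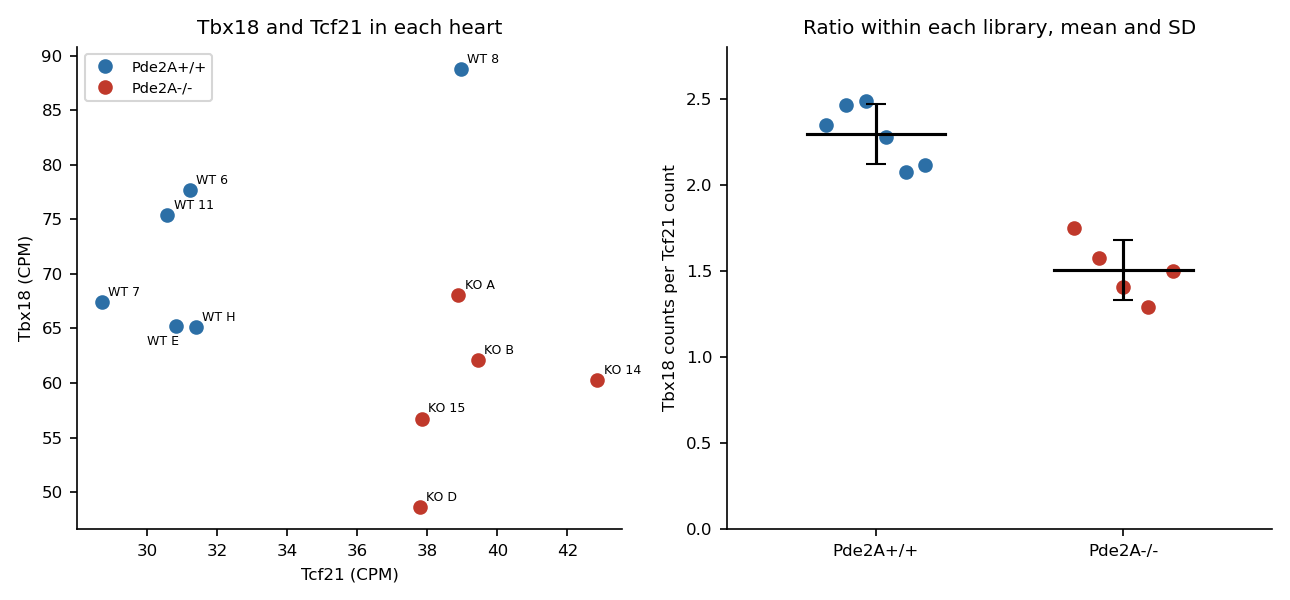
Left, Tbx18 against Tcf21 in CPM for each heart; right, Tbx18 counts per Tcf21 count in each library, with the mean and SD of Pde2A+/+ (n = 6, blue) and Pde2A-/- (n = 5, red) hearts. WT 8 is high for both genes, so that its ratio of 2.28 falls among those of the other Pde2A+/+ hearts.

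Wt1, the zinc finger factor that maintains the epicardium and its transition to mesenchyme, had 35.3 CPM in KO A, 37.9 in KO B, 56.4 in KO 14, 59.6 in KO D and 53.7 in KO 15. In Pde2A+/+ hearts it ran from 26.1 CPM in WT H over a median of 35.5 to 50.7 in WT 8. KO 14, KO D and KO 15 lay above all Pde2A+/+ hearts, while KO A and KO B lay in the middle of them. The log2 fold change was 0.36 (SE 0.19, edgeR adjusted p = 0.230), which is not a call, and its 95% interval spanned folds of 0.962 to 1.70. Bnc1, a zinc finger factor of mesothelium and other epithelia, had 27.6 ± 7.30 CPM (SD, n = 5) and 24.1 ± 6.68 CPM (SD, n = 6), with a log2 fold change of 0.20 (SE 0.20, edgeR adjusted p = 0.564).

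Aldh1a2 makes retinoic acid from retinal and is the main such enzyme of the epicardium. It had 40.1 CPM in KO A, 35.3 in KO B, 57.1 in KO 14, 63.4 in KO D and 47.8 in KO 15. In Pde2A+/+ hearts it ran 2.99-fold, from 28.4 CPM in WT H over a median of 48.6 to 84.7 in WT 11. The Pde2A-/- hearts all lay inside that range. The log2 fold change was −0.15 (SE 0.26, edgeR adjusted p = 0.753), with folds of 0.606 to 1.33 in the interval.

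The surface proteins of the mesothelium were not called. Upk3b had 136.3 ± 28.4 CPM (SD, n = 5) in Pde2A-/- and 130.5 ± 56.5 CPM (SD, n = 6) in Pde2A+/+ hearts, and the interval of its fold ran from 0.709 to 1.54. Lrrn4, a leucine-rich repeat protein of mesothelial cells, had 45.4 ± 14.1 CPM (SD, n = 5) and 41.4 ± 19.5 CPM (SD, n = 6), with folds of 0.702 to 1.71. Upk1b, a tetraspanin partner of the uroplakins, had 18.8 ± 4.59 CPM (SD, n = 5) and 16.1 ± 5.22 CPM (SD, n = 6), with folds of 0.846 to 1.61. Folds between these bounds are compatible with the values of the 11 hearts.

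Msln, the mesothelin anchored to the surface of mesothelial cells, and the simple-epithelium keratin Krt19 had the largest fitted differences of the 10. Msln had 31.0 CPM in KO A, 49.4 in KO B, 53.2 in KO 14, 56.7 in KO D and 72.8 in KO 15, against 30.1 to 48.9 CPM with a median of 35.1 in Pde2A+/+ hearts. Krt19 had 29.0 CPM in KO A, 58.4 in KO B, 82.0 in KO 14, 71.0 in KO D and 116.0 in KO 15, against 31.3 to 70.5 CPM with a median of 46.0. KO A sat at the low end of the Pde2A+/+ range for Msln and just below it for Krt19, and KO 15 lay far above it for both. The log2 fold change was 0.49 for Msln (SE 0.18, edgeR adjusted p = 0.0896) and 0.57 for Krt19 (SE 0.29, edgeR adjusted p = 0.211). Without KO A both were called, Msln at 0.63 (edgeR adjusted p = 0.00998) and Krt19 at 0.77 (edgeR adjusted p = 0.0349). With the naming style as a covariate both were called as well, at 0.57 (edgeR adjusted p = 0.0401) and 0.78 (edgeR adjusted p = 0.0246), and DESeq2 called Msln (adjusted p = 0.0356). Without KO 15 the differences were smaller, 0.35 for Msln (edgeR adjusted p = 0.243) and 0.33 for Krt19 (edgeR adjusted p = 0.518).

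**Figure D3:**
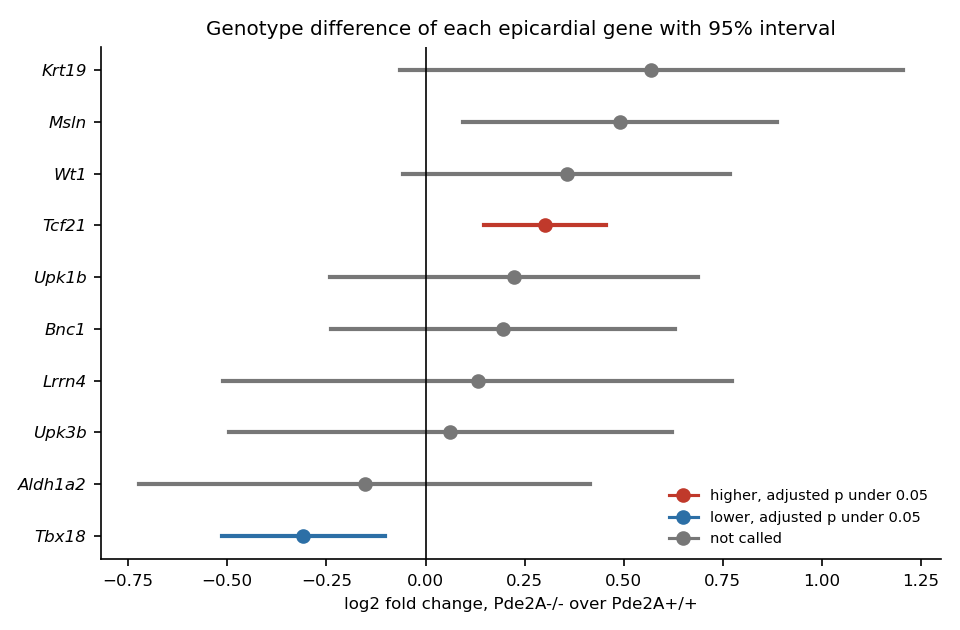
Log2 fold change of each epicardial gene, Pde2A-/- over Pde2A+/+ hearts (points), with its 95% interval (lines) from edgeR's quasi-likelihood fit. Tcf21 and Tbx18, the called genes, have the narrowest intervals, and Krt19 at 0.57 and Msln at 0.49 have the largest differences.

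For most of these genes the level spread widely between hearts of the same genotype. The biological coefficient of variation, edgeR's estimate of the spread between hearts beyond counting error, had a median of 24.3% over the 10 genes and of 10.2% over tested genes averaging 1 CPM or more. It was 9.18% for Tcf21 and 11.7% for Tbx18, and between 21.5% and 34.1% for the other 8. The same hearts were high or low for most of the genes. Among Pde2A+/+ hearts, WT 8 was in the top 2 for 10 of the 10 genes and WT 11 for 8, and WT H was the lowest for 9. Among Pde2A-/- hearts, KO A and KO B were each in the lowest 2 for 8 of the 10. WT 8 and WT 11 stood level in the mean of the 10 genes, at 5.81 and 5.82 log2 CPM. WT 11 held the lung and liver markers given above, and WT 8 had 0 for Nkx2-1 and Foxn1 and 0.0261 CPM for Alb. Whether tissue of other organs had a part in the level of either heart was not tested. The mean of the 10 genes was 5.55 ± 0.30 log2 CPM (SD, n = 5) in Pde2A-/- and 5.34 ± 0.40 (SD, n = 6) in Pde2A+/+ hearts, from 5.16 to 5.78 and from 4.82 to 5.82.

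**Figure D4:**
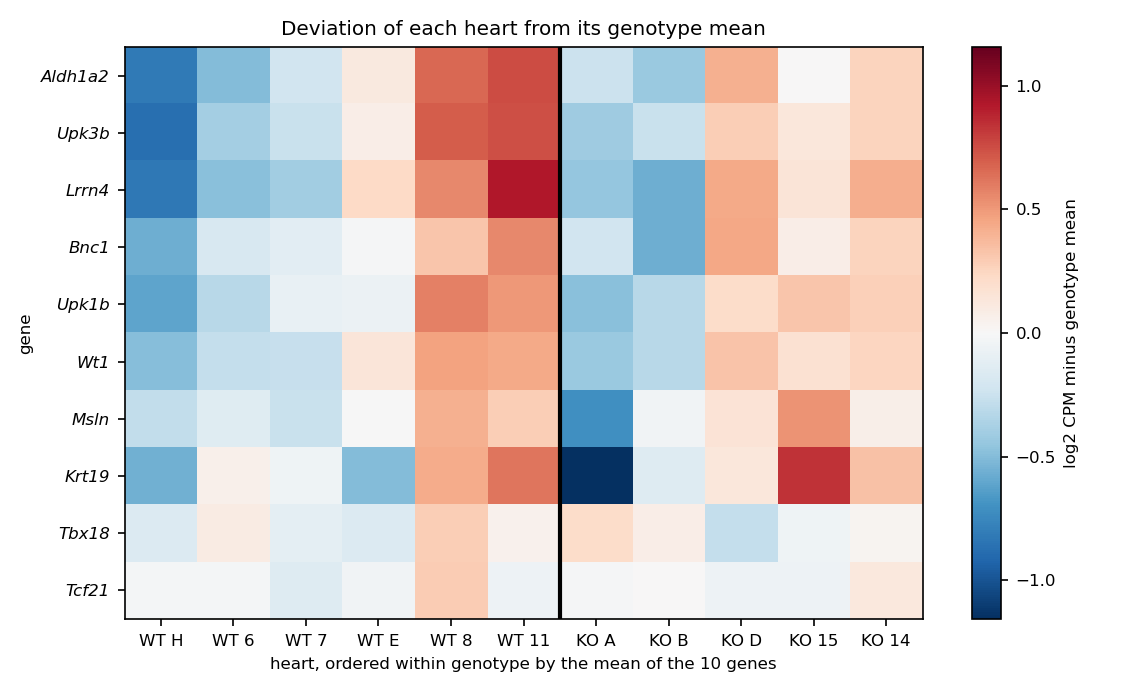
Deviation of each heart from the mean of its genotype, in log2 CPM, for the 10 genes (rows) in Pde2A+/+ hearts (left of the line) and Pde2A-/- hearts (right). The upper 6 rows go from low to high together, with WT H lowest and WT 8 and WT 11 highest, while Tbx18 and Tcf21 in the bottom rows stay pale.

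To describe which genes moved together, the log2 CPM of each gene was centred within its genotype and pairs were correlated over the 11 hearts, which share library, depth and normalization from gene to gene. Wt1, Aldh1a2, Upk3b, Upk1b, Lrrn4 and Bnc1, grouped after these values had been seen, had r of 0.89 to 0.98 in their 15 pairs (median 0.95, median rho 0.95). With the 2 hearts farthest from the median left out of each pair, the median r was 0.93. Msln and Krt19 followed those 6 less closely, at r of 0.57 to 0.85 (median 0.70, median rho 0.80, and 0.77 without 2 hearts). Tbx18 had a median r of 0.05 with the other 9 genes (median rho 0.04, and 0.06 without 2 hearts), and Tcf21 of 0.38 (median rho −0.12, and −0.26 without 2 hearts), and in most pairs of Tcf21 the hearts left out were WT 8 and KO 14. The value near 0 for Tbx18 pooled unlike patterns in the genotypes. In the 6 Pde2A+/+ hearts alone its r with each of the other 9 genes was positive, from 0.50 with Lrrn4 to 0.79 with Krt19 and Tcf21, and it was highest in WT 8 and lowest in WT H, as Upk1b and Msln were. In the 5 Pde2A-/- hearts, too few for a correlation, Tbx18 fell from KO A over KO B, KO 14 and KO 15 to KO D. There Wt1 was lowest in KO A and KO B and highest in KO D, and Upk3b and Lrrn4 were likewise lower in KO A and KO B than in the other 3. The difference between the genotypes in this pattern was not tested.

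The genes whose pattern over the hearts was most like the mean of the 10 were then read out from the 14024 tested genes that averaged 1 CPM or more, whose median r with that mean was −0.07 and of which 0.841% reached 0.9. The 8 with the highest r, all between 0.97 and 0.99, were Ildr2, Aplp1, Anxa3, Efemp1, Rcn3, Usp29, Arhgef10 and Golm1. With WT 11 and WT H left out their r lay between 0.96 and 0.99. Ildr2 (an immunoglobulin-like membrane protein) had 33.5 ± 7.05 CPM (SD, n = 5) and 26.7 ± 9.79 CPM (SD, n = 6). Efemp1, a fibulin of the matrix, was in the list of wider epicardial and mesothelial genes. Of the 8, Anxa3, an annexin, was called, with 43.7 ± 3.93 CPM (SD, n = 5) against 33.7 ± 5.22 CPM (SD, n = 6) and a log2 fold change of 0.37 (SE 0.10, edgeR adjusted p = 0.0253).

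A list of 8 genes of the atrial myocardium, written after these patterns had been seen, varied between hearts much as the epicardial genes did. The mean of the list and that of the 10 genes, both centred within genotype, had r = 0.93 over the 11 hearts (rho 0.97, and r = 0.87 without WT 11 and WT H). Among its genes, Sln, the regulator of the atrial calcium pump, had r = 0.91, the atrial light chain Myl7 0.90, Stard10 0.90, Dkk3 0.89, Nr2f1 0.76 and Nppa, the atrial natriuretic peptide, 0.72, while Kcna5 had 0.22 and Myl4 0.02. A list of 5 ventricular genes went the other way as a mean, with r = −0.82 (rho −0.90, and r = −0.67 without those 2 hearts). Its Irx4, Myl3 and Myl2 had r of −0.86, −0.85 and −0.82, and Hey2 and Mycn −0.08 and 0.30. When the mean of the atrial list was added to the fit as a covariate, the SEs of Wt1, Aldh1a2, Upk3b, Upk1b, Lrrn4 and Bnc1 fell from between 0.19 and 0.30 to between 0.10 and 0.15, and none of the 6 was called (edgeR adjusted p from 0.108 to 0.992). In that fit Tcf21 had a log2 fold change of 0.28 (edgeR adjusted p = 0.0227) and Tbx18 of −0.32 (edgeR adjusted p = 0.0488), and both remained called. The atrial list itself held 2 genes called higher, Dkk3 (0.89) and Nppa (0.87), and 2 called lower, Nr2f1 (−0.77) and Myl4 (−0.45), on the log2 scale. A covariate with r = 0.93 to the mean of the 10 genes lowers the SEs of those that move with it by construction. The list was written after the patterns were seen and holds genes called by genotype, so this fit was no separate check of either call.

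**Figure D5:**
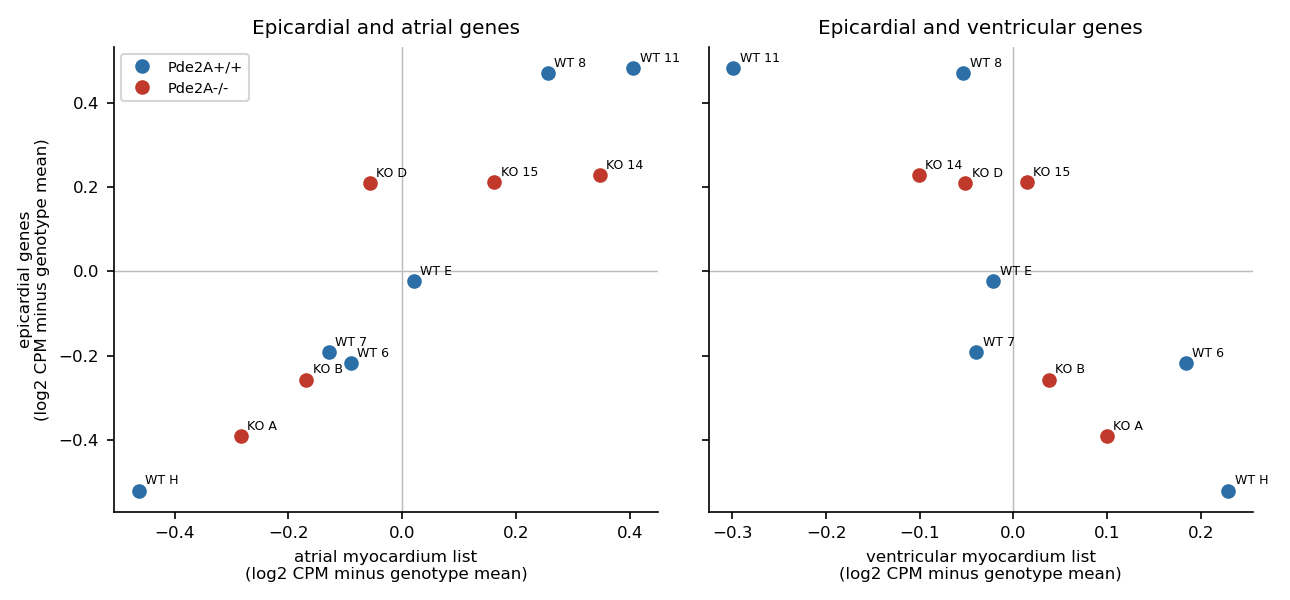
Mean of the 10 epicardial genes in each heart against the mean of 8 atrial genes (left) and of 5 ventricular genes (right), each as log2 CPM minus the mean of the genotype, for Pde2A+/+ (blue) and Pde2A-/- (red) hearts. The points rise with the atrial list (r = 0.93) and fall with the ventricular one (r = −0.82).

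Of 20 further genes of epicardium and mesothelium, 2 were called higher and none lower, with a median log2 fold change of 0.16. Among all genes tested, 8.93% were called higher and 5.67% lower, the shares to set beside each list count from here on. Complement C3, which mesothelial and other cells secrete, had 4.54 CPM in KO A, 14.6 in KO B, 18.6 in KO 14, 20.8 in KO D and 32.9 in KO 15, against 2.55 to 7.996 CPM with a median of 4.47 in Pde2A+/+ hearts. Only KO A lay within the Pde2A+/+ range. Its log2 fold change was 1.91 (SE 0.38, edgeR adjusted p = 0.00713), where the 10 marker genes reached at most 0.57. Rarres2, the chemerin gene, rose from 17.1 ± 3.02 CPM (SD, n = 6) to 25.9 ± 7.43 CPM (SD, n = 5), a log2 fold change of 0.60 (edgeR adjusted p = 0.0409). Over hearts, 10 of the 19 such genes averaging 1 CPM or more had r of at least 0.8 with the mean of the 10 markers, as did 3.05% of all genes at that level. Gpm6a reached 0.97 and Krt7 0.93, while Krt8 (0.29), Krt18 (0.20) and Itga4 (−0.31) did not follow. WT 7, the heart with thymus markers, had 89.2 CPM of Krt8, 75.9 of Krt18 and 46.8 of Itga4. The other Pde2A+/+ hearts had at most 30.1, 24.3 and 18.5 CPM, and r without WT 7 was not taken. Itga4 had 35.5 to 42.0 CPM in Pde2A-/- hearts and was not called (edgeR adjusted p = 0.0506).

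In the retinoic acid pathway 3 of 17 tested genes were called higher and none lower. Dhrs3, which turns retinal back to retinol, had 18.8 CPM in KO A, 19.2 in KO B, 34.1 in KO 14, 51.2 in KO D and 49.7 in KO 15, against 13 to 20.6 CPM in Pde2A+/+ hearts. KO A and KO B overlapped with the Pde2A+/+ hearts and the other 3 did not. It rose by 1.07 on the log2 scale (SE 0.25, edgeR adjusted p = 0.0162). Cyp26b1, which breaks retinoic acid down, rose by 0.79 (SE 0.18, edgeR adjusted p = 0.0124) and the receptor Rara by 0.32 (SE 0.08, edgeR adjusted p = 0.0189). None of the enzymes that make retinal or retinoic acid was called: beside Aldh1a2, Aldh1a1 had a log2 fold change of 0.44, Aldh1a3 of 0.11 and Rdh10 of −0.33.

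Of 15 tested genes for signals between epicardium and myocardium, 2 were called higher and none lower. Tgfb3 had 67.5 ± 26.1 CPM (SD, n = 5) against 41.1 ± 4.56 CPM (SD, n = 6), a log2 fold change of 0.71 (edgeR adjusted p = 0.0340). Fstl1, a secreted follistatin-like protein, had 1342 to 1499 CPM in Pde2A-/- and 1170 to 1292 CPM in Pde2A+/+ hearts, which did not overlap. It rose by 0.21 (SE 0.04, edgeR adjusted p = 0.0080). Igf2 (0.17), Fgf9 (0.23) and Cxcl12 (−0.28) were not called.

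Of 14 genes of the transition from epithelium to mesenchyme, 4 were called higher and none lower. The repressor Zeb1 rose by 0.39 (SE 0.09, edgeR adjusted p = 0.0155), the TGF-beta co-receptor Tgfbr3 by 0.29, the intermediate filament Vim by 0.28 and the receptor Pdgfra by 0.27. The repressors Snai1 (0.19), Snai2 (0.04) and Twist1 (−0.15) were not called. Of 14 genes of epicardium-derived fibroblasts and mural cells, the matrix protein Postn was called higher, with 735.9 ± 69.2 CPM (SD, n = 5) against 549.5 ± 57.4 CPM (SD, n = 6) and a log2 fold change of 0.42 (SE 0.08, edgeR adjusted p = 0.00484). Cnn1 of smooth muscle fell by 0.38 and the pericyte potassium channel Kcnj8 by 0.31. The fibroblast genes Col1a1 (0.06), Col3a1 (0.13) and Dcn (0.16) were not called. In the lists where edgeR called no gene lower, 0 of the wider epicardial genes and 1 gene each of the retinoic acid, signal and transition lists were lower at an unadjusted p under 0.05, and DESeq2 called 0 lower in each of the 4.

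Genes of other cells of the heart moved with the genotype as well. Of 12 macrophage genes 11 were called higher, led by Fcgr3 (1.43), F13a1 (1.30) and C1qc (1.12), and their summed level was 303.3 to 391.2 CPM in Pde2A-/- and 155.3 to 236.9 CPM in Pde2A+/+ hearts. Of 9 erythroid genes 8 were called higher, Hemgn (4.94), Klf1 (4.10), Gata1 (3.45) and Epb42 (2.96) the most, with sums of 485.9 to 980.1 and 126.0 to 516.7 CPM. Of 12 endothelial genes 4 were called higher, Emcn (0.50), Nfatc1 (0.34), Pecam1 (0.34) and Egfl7 (0.22), and of 12 cardiomyocyte genes 3 were called lower, Ttn (−0.51), Mybpc3 (−0.34) and Nkx2-5 (−0.27). From heart to heart within a genotype, over the 11 hearts, the mean of the macrophage list had r = 0.72 with the mean of the 10 epicardial genes (rho 0.72, and r = 0.74 without WT 11 and WT H). The cardiomyocyte mean had r = −0.53 (rho −0.50, and −0.28 without those 2 hearts), the endothelial mean −0.16 (rho −0.36, and −0.10) and the erythroid mean 0.11 (rho 0.04, and 0.0095). Of the genes in the lists of other organs, Etv5 was called higher at 0.60 (edgeR adjusted p = 0.00257) and had r = 0.93 with the mean of the 10 genes. The transferrin gene Trf, called higher at 0.73, had 0.42. Both were present in all 11 hearts. Etv5 had 29.5 to 39.3 CPM in Pde2A-/- hearts and 25.5 in WT 11, the heart with Nkx2-1. The levels of Etv5 and Trf therefore do not show tissue of other organs. No thymus or skeletal muscle marker was called by edgeR or DESeq2 (8 thymus markers lower and 2 muscle markers higher at an unadjusted p under 0.05 in edgeR), and Myh3 (2.50) and Myh8 (1.86) had the largest fitted differences of the muscle genes above 1 CPM. The part of these cells and organs in the differences of the epicardial genes was not tested.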

How the data were processed

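RNA-seq of 11 single embryonic hearts was used. The authors made stranded poly(A) libraries, sequenced single-end reads on a NextSeq instrument and, per the submitters' processing notes, used STAR and GRCm38. They deposited raw counts per gene for each heart, as whole numbers without normalization, in which a read on more than 1 gene is counted for none. Counts on the strand of the gene (column 4) were used, with the 4 lines of reads not counted on a gene left out. These lines held 19.6% to 22.4% of the reads of a library. Groups and heart names came from the deposited labels.

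Symbols and exons were taken from GENCODE M21, which held 55141 of the 55487 identifiers; Ahsp of the erythroid list was not matched. Genes with at least 10 counts over all hearts were compared by genotype with edgeR 4.0.16 in R 4.3.3 (TMM, quasi-likelihood test, Benjamini-Hochberg adjustment). The SE is the log2 fold change divided by the root of the F statistic. Values in CPM are normalized by TMM, and log2 CPM uses a prior count of 2. The common coefficient of variation between hearts was 16.8%, above counting error at these depths. The fit was tested on simulated data. Alternatives were DESeq2 1.42.0, its size factors, filterByExpr, no filter beyond 1 count, reads of both strands, a fit without erythroid and globin genes, the style of heart names (letter or number) as a covariate, and each heart left out. An atrial covariate, leaving out WT 7 with WT 11, and leaving out the 6 hearts with markers of other organs were chosen after seeing the data.

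The 10 genes and all lists were chosen with earlier results of these data known. The text names all 10, from each other list up to 4 called genes with the largest change (or up to 2 with a mean of at least 1 CPM if none was called), and the 8 genes most like the mean of the 10. Other list genes were named after their values were seen. No list was tested as a set. Figures used Python 3.11.15 and matplotlib 3.10.9.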

Additional observations from a re-analysis of the deposited data

Results flagged for a closer look

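Single hearts that stood apart from the others of their genotype were sought by Dixon's test among 51 genes, in 102 groups of 5 or 6 hearts, and 4 were found. Chance flags about 1 in 20 groups. Foxn1 (10.9 CPM), Rag1 (32.6 CPM) and Itga4 (46.8 CPM) in WT 7 also stood far above the other Pde2A+/+ hearts but are not among the 4. The count therefore does not cover every gene for which a heart stood apart. Tcf21 had 38.96 CPM in WT 8, where the other Pde2A+/+ hearts had 28.7 to 31.4. Nfatc1, a factor of the endocardium, had 64.6 CPM in KO B, where the other Pde2A-/- hearts had 51.0 to 53.6. In WT 7, the T cell receptor subunit Cd3g had 22.5 CPM against 0 to 0.110 in the other Pde2A+/+ hearts, and the thymic proteasome subunit Psmb11 had 26.6 CPM against 0 to 0.0497. Their genotype differences were not called (edgeR adjusted p = 0.0553 and 0.0557).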

How the results depend on the processing

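No paired analysis was possible because the genotypes share no heart names. Of the 10 epicardial genes, 1 was called higher and 1 lower. These counts were 2 and 1 with DESeq2, 3 and 0 with the naming style as a covariate, and 0 and 0 without WT 7 and WT 11 together or without the 6 hearts with markers of other organs. With each heart left out in turn, 0 to 3 were called higher and 0 to 1 lower. Of all genes tested, 14.6% were called in the reported fit, 30.2% with DESeq2, 16.3% with the naming style, 9.59% without WT 7 and WT 11, 1.07% without the 6 hearts, and 7.13% to 21.2% with each heart left out. The median log2 fold change of the 10 lay between 0.11 and 0.33 over all 21 alternatives. Over the 13 other lists 37 genes were called higher and 5 lower; lower were 10 with DESeq2, 11 with the naming style as a covariate and 3 to 9 with each heart left out, and without the 6 hearts 10 were higher and 0 lower.

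Tcf21 was called in 18 of the 21 alternatives and Tbx18 in 11, both in the same direction in all. Upk3b, not called in any, changed sign without the 6 hearts (-0.0804), with the atrial covariate (−0.0030), and without KO 14 (−0.0015), KO D (−0.0073), WT 6 (−0.02), WT 7 (−0.0019) or WT H (-0.0708), and ran from there to 0.231 with each heart left out. Aldh1a2 changed sign without WT 11 (0.0189) and ran from -0.282 with each heart left out. The cause was not tested. For the 8 genes that were not called, the spread between hearts, not the depth, set the width of the intervals.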
